A study of Mus musculus with 4 samples.

Results

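The genes described here encode the core of the bone morphogenetic protein (BMP) pathway: the ligands Bmp2, Bmp4, Bmp5, Bmp6 and Bmp7, the receptors Bmpr1a and Bmpr2, and the intracellular Smads Smad1, Smad5 and Smad6. They were taken by symbol, as every probe set annotated to 1 of these symbols and to no other gene. That gave 25 of 45037 probe sets for the 10 genes, out of 18193 genes on the array with a probe set of their own. Expression was measured in the leaflets of the aortic and pulmonary (semilunar) valves of newborn mice, on 4 Affymetrix arrays that each held RNA from a pool of 3 neonates. In 2 pools the neonates were Cxcr7-/-, which lack Cxcr7 (Ackr3), a scavenger receptor for CXCL12; these are called the mutants here. In the other 2 pools they were wildtype littermates, called the controls. Strain, sex and the nature of the Cxcr7 allele were not given in the sources used here. The labels give 2 or 3 leaflets per valve for the mutants, hence 4 to 6 leaflets from each, against 6 from each wildtype. The deposited values are MAS5 signals, a linear measure of hybridisation per probe set.

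BMP ligands are secreted dimers that bring together type I receptors, such as the product of Bmpr1a, and type II receptors, such as the product of Bmpr2. The type I receptor then phosphorylates the receptor-regulated Smads, Smad1 and Smad5 among them, which join Smad4 and act on genes in the nucleus. Smad6 is an inhibitory Smad, itself a target of the pathway, that dampens the signal at the receptor. In the embryonic heart, BMP signals from the myocardium drive the change of endocardium to mesenchyme from which the valve cushions form, and Smad6 is known for its expression in the outflow tract and the valves.

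Smad1 was lower in both mutant pools on all 3 of its probe sets, 1 of them by a small margin. Smad5 and, by a small margin, Smad6 overlapped between the genotypes. The stretch before the start of each of these Smads is shown. The promoter tables of RefSeq (build GRCm38.p6) held 8 of the 10 genes, Bmp2 and Bmp7 being the others. The 250 bases before the start are given 5′ to 3′ on the strand of the gene, and capitals mark 2 short motifs on either strand, the Smad-binding letters GTCT and the GC-rich letters GGCGCC. Smad1 lies on the minus strand at chr8:79399429-79399678, Smad5 on the plus strand at chr13:56702760-56703009 (the most upstream of its 3 starts) and Smad6 on the minus strand at chr9:64022060-64022309.
Smad1: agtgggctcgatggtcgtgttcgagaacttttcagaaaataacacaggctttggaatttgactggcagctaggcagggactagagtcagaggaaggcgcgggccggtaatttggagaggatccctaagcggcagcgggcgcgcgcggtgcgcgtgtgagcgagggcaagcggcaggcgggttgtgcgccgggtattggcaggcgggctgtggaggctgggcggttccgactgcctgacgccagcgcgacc
Smad5: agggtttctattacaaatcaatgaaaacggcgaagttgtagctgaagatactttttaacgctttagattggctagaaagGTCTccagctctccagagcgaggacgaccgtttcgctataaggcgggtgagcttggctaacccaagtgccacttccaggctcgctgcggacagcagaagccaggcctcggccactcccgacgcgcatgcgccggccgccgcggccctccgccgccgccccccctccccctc
Smad6: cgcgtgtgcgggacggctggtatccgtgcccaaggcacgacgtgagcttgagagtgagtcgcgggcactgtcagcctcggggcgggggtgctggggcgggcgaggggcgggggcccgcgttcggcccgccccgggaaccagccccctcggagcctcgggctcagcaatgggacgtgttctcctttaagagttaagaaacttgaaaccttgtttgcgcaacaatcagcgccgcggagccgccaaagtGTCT

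The Smad1 window held neither motif, while those of Smad5 and Smad6 each held GTCT at 1 place and GGCGCC at none. Of all 32851 promoter windows of this length, 82.9% held GTCT and 9.59% held GGCGCC. The 2 receptors were the members with a GGCGCC match, 1 each in Bmpr1a and Bmpr2. GGCGCC followed after 5 bases by GTCT, found in 0.07% of all windows, was in none of the 8. GC content was 63.6% for Smad1, 60.0% for Smad5 and 66.8% for Smad6, against a median of 52.4% over all windows. A match is a run of letters and not a measured binding site.

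Before the members are described, some facts of the 4 pools bear on them. Cxcr7 itself read 28.3 and 328 in the mutants and 4936 and 5698 in the controls, the direction that the labels give. All 14 listed markers of valve interstitial cells and all 14 of endothelial cells passed the filter on low signal. The interstitial genes Dcn and Postn read between 35352 and 68440 in the 4 pools, both lowest in control replicate 2. Summed interstitial signal was 301373 and 316093 in the mutants and 332622 and 226543 in the controls. Control replicate 2 stood apart from the other pools in cardiomyocyte signal. Its summed cardiomyocyte marker signal was 290390, against 195320 in control replicate 1 and 106694 and 158708 in the mutants. All 22 of these listed markers were measured, none was listed at 0, and all 22 had negative log2 fold changes. Log2 fold changes were positive for each of 15 macrophage markers and each of 19 cell cycle genes measured. Their summed signals were 20429 to 22586 and 58140 to 59414 in the mutants, and 11925 to 14371 and 37239 to 40028 in the controls, in that order. Log2 fold changes were negative for 11 of 14 endothelial and 7 of 8 smooth muscle markers that passed the filter. The same held for 5 of 6 lung epithelial and 4 of 4 adipocyte markers. Values were positive for 5 of 6 neuronal and Schwann cell markers. Summed smooth muscle signal was 16999 and 21525 in the mutants and 26045 and 35138 in the controls. Summed lung epithelial signal was 1449 and 1761 against 4343 and 7950, and summed adipocyte signal 4474 and 8277 against 13432 and 14772. Summed neuronal and Schwann cell signal was 2820 and 2266 against 1616 and 1633. The mutant pools were uneven in other lists. Summed melanocyte signal was 21304 and 8770 in the mutants and 10690 and 16098 in the controls. Summed erythroid signal, over 2 genes, was 819 and 1845 against 1867 and 1335. The 3' to 5' signal ratio of Actb was 15.5 and 11.7 in the mutants and 20.2 and 19.1 in the controls. That of Gapdh was 12.6 and 8.20 in the mutants and 12.7 and 24.2 in the controls, the highest being control replicate 2. In bulk tissue, fewer cells of a type and less RNA per cell cannot be told apart. The part that any of these values had in the results on the BMP genes was not tested.

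Of these genes Smad1 had the smallest p, at 1.50-fold lower signal in the mutants, and it did not pass after adjustment over all probe sets. For 11 of the 20 BMP probe sets that could be tested, the difference between genotypes was smaller than its standard error. Signals were compared as log2(signal + 22), and a probe set was kept where its mean over the 4 pools lay above the median of all probe sets, a log2 value of 6.77. By that rule 20 of the 25 member probe sets and at least 1 for each of the 10 genes were kept. No member passed an adjusted p of 0.05 in limma (smallest 0.461, Benjamini-Hochberg over 22518 probe sets), and neither did any other probe set (0 of 22518, or 0.0%). At an unadjusted p under 0.05 there were 2 of the 20, both for Smad1 and both lower in Cxcr7-/- pools, which is 2 in 20 against 10.1% of all kept probe sets (2279). Over all of them 6.18% were lower and 3.94% higher at that p. In 7 of the 20 the genotypes did not overlap, 5 lower and 2 higher in both Cxcr7-/- pools, where 42.4% of all kept probe sets did not overlap (22.3% lower and 20.1% higher). Both shares of the members are near those of all probe sets, so the counts show nothing particular to these genes. The median absolute log2 fold change was 0.18 over the 20 member probe sets and 0.31 over all kept ones, and the median standard error was 0.31 and 0.34.

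**Figure D1:**
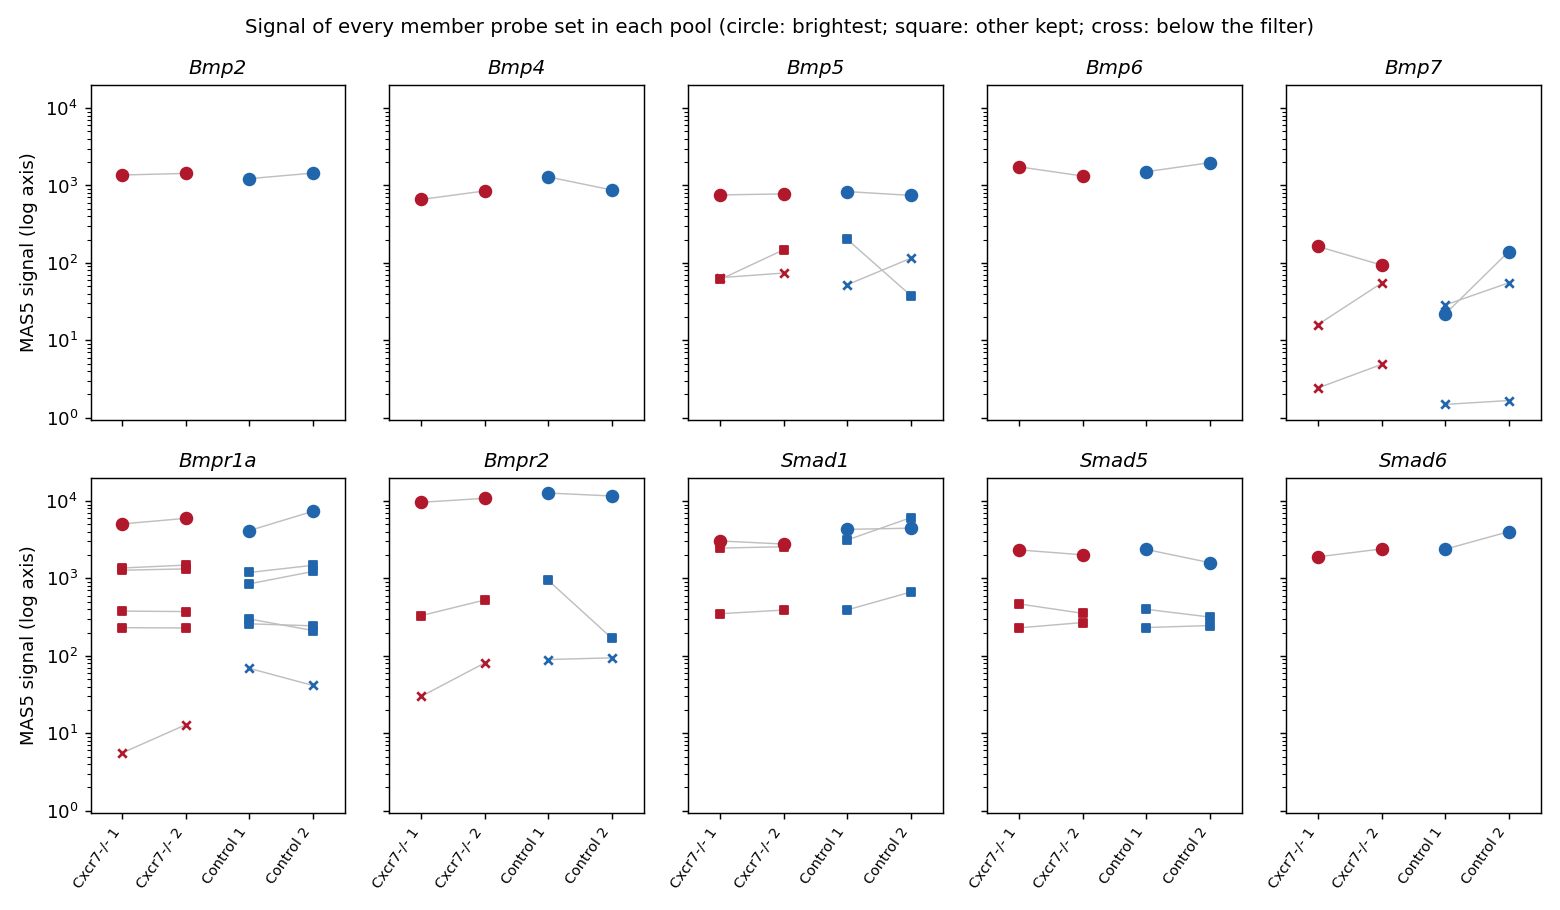
MAS5 signal (vertical log axis, shared by all panels) of every member probe set in each of the 4 pools (horizontal axis), 1 panel per gene, red for Cxcr7-/- and blue for control. Circles are the brightest probe set of a gene, squares its other kept probe sets and crosses those below the filter; grey lines join the 2 pools of a genotype. All 3 Smad1 probe sets lie lower in both Cxcr7-/- pools, 1416081_at by a small margin. The pools overlap for Bmp2, Bmp6, Smad5 and, by a small margin, Smad6.

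Among the ligands, Bmp4 was the 1 gene whose brightest probe set separated the genotypes. Bmp4, a ligand with roles in outflow tract septation and cushion formation, read 661 and 850 in the mutants and 1289 and 874 in the controls. Both mutant pools were lower than both control pools, but Cxcr7-/- replicate 2 and control replicate 2 were close, at 850 and 874. Mutants minus controls, this is a log2 fold change of -0.49 ± 0.31 (model SE, 2 pools each), with a 95% interval from -1.21 to 0.23 and an adjusted p of 0.634 in limma. Without control replicate 1 it was -0.22, and without control replicate 2 it was -0.77.

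Bmp2, the myocardial ligand that is required for cushion formation, read 1365 and 1433 in the mutants and 1226 and 1446 in the controls. Both mutant values lay between the control values. Its log2 fold change of 0.07 ± 0.26 has a 95% interval from -0.53 to 0.67, so a difference of up to about those sizes is not excluded by 2 pools a genotype. Bmp6, a ligand of the same family as Bmp5 and Bmp7 that is made by endothelial cells in many tissues, read 1741 and 1325 against 1506 and 1969, and the genotypes overlapped. Its log2 fold change was -0.18 ± 0.28, and it was 0.02 without Cxcr7-/- replicate 2 and 0.01 without control replicate 2.

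Bmp5 and Bmp7, a pair of closely related ligands with overlapping roles in the developing heart, were each measured by 3 probe sets. The brightest of Bmp5 read 755 and 779 against 834 and 745, and its log2 fold change was -0.04 ± 0.27 (95% interval -0.67 to 0.59). This was the most even signal of the ligands over the 4 pools. Another kept probe set of Bmp5 was dim and uneven, at 61.2 and 148 against 201 and 37.8, and its log2 fold change of 0.04 ± 0.67 was 0.99 without control replicate 1 and -0.91 without control replicate 2. The third read between 52.3 and 115 and did not pass the filter.

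Bmp7 barely passed the filter. Its brightest probe set read 163 and 93.9 in the mutants and 21.9 and 140 in the controls, and its mean log2 value of 6.80 was just above the filter at 6.77. The genotypes overlapped, since control replicate 2 lay between the mutant pools. Its log2 fold change of 0.80 ± 0.64, the highest of the 20, rests on the single value of 21.9 in control replicate 1: without that pool it was -0.15. The other 2 Bmp7 probe sets read from 16.0 to 55.3 and from 1.49 to 4.89, below the filter.

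Of the receptors, Bmpr2, the type II receptor whose loss underlies heritable pulmonary arterial hypertension, read 9608 and 10821 in the mutants and 12650 and 11596 in the controls. Both mutant pools were lower than both control pools. The difference was small, at a log2 fold change of -0.25 ± 0.21 (95% interval -0.73 to 0.23, adjusted p = 0.719 in limma). It kept its sign with each pool left out, between -0.16 and -0.33. A dimmer Bmpr2 probe set did not separate the genotypes, at 331 and 526 against 940 and 168. The 2 control pools of that probe set differed by 2.34 on the log2 scale, more than those of any other member probe set. The third, at 30.0 and 81.0 against 89.6 and 94.2, did not pass the filter.

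Bmpr1a, the type I receptor that is required in endocardium and cushion mesenchyme, had 6 probe sets, 5 of them kept, and they did not point one way. The brightest read 5052 and 5967 in the mutants and 4151 and 7364 in the controls, with both mutant values between the control values and a log2 fold change of -0.01 ± 0.30. The dimmer probe set 1425491_at was higher in both mutant pools, at 378 and 373 against 259 and 244, which is 0.54 ± 0.31 on the log2 scale (adjusted p = 0.601 in limma). Probe set 1425493_at was also higher in both, at 1276 and 1326 against 851 and 1230 (0.34 ± 0.29), but its log2 fold change was 0.08 without control replicate 1 and 0.60 without control replicate 2. The remaining kept ones were at 0.10 ± 0.26 and -0.12 ± 0.34, with overlapping genotypes. All 5 of these probe sets were designed from the same sequence record, so they are repeated readings of 1 transcript family and not separate evidence. A sixth, from another record, was below the filter at 5.59 and 12.9 against 68.8 and 41.4.

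**Figure D2:**
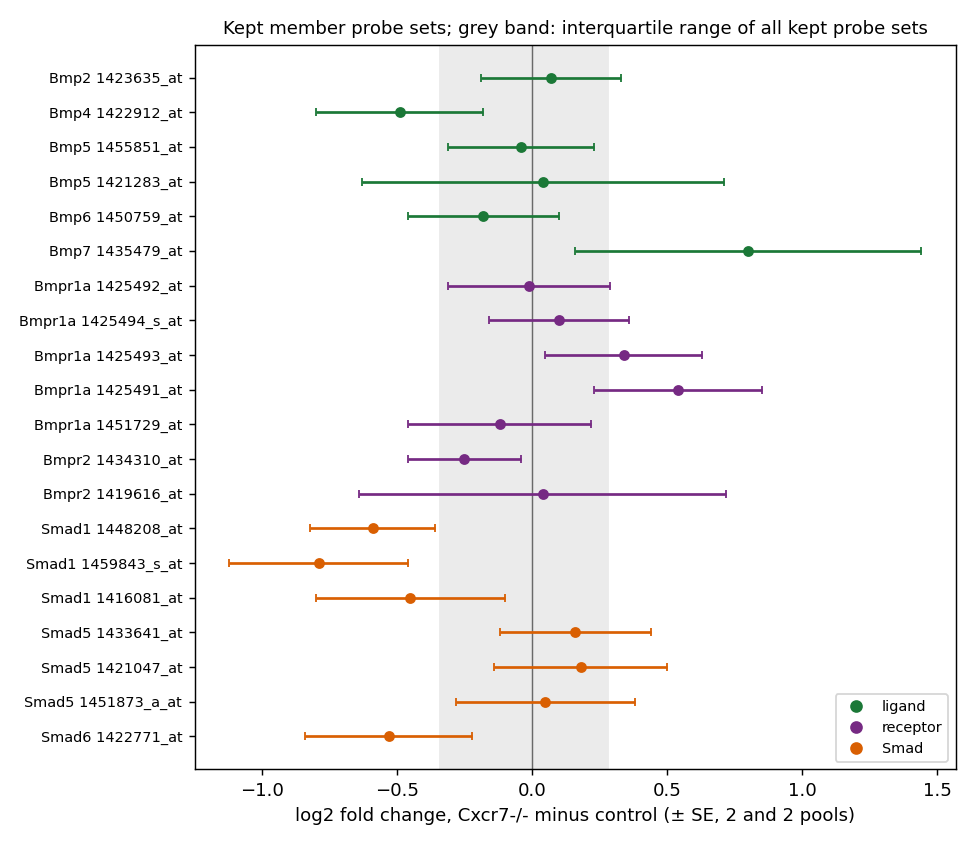
Log2 fold change of each of the 20 kept member probe sets, Cxcr7-/- minus control (horizontal axis, points with ± SE from limma, 2 and 2 pools), coloured by role. The grey band spans the interquartile range of all kept probe sets, from -0.34 to 0.28. The 3 Smad1 probe sets, Smad6 and Bmp4 lie below it. Bmpr1a 1425491_at (0.54), Bmpr1a 1425493_at (0.34) and Bmp7 (0.80) lie above it, and Bmp7 has one of the widest errors.

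The Smads are described gene by gene, and differences between them were not tested. Smad1, a receptor-regulated Smad, was below both controls in each mutant pool, and this held on all 3 of its probe sets. Smad5, the receptor-regulated Smad with the closest role, overlapped between genotypes on all 3 of its own. Smad6, the inhibitory Smad, overlapped by a small margin. Its log2 fold change of -0.53 lay within the range of the Smad1 probe sets, from -0.79 to -0.45.

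The brightest Smad1 probe set, 1448208_at, read 3042 and 2778 in the mutants and 4299 and 4451 in the controls. The pools of each genotype were close to each other, 0.13 apart on the log2 scale for the mutants, where replicate 1 was the higher, and 0.05 for the controls. The log2 fold change was -0.59 ± 0.23, or 1.50-fold lower signal in the mutants, with a 95% interval from -1.11 to -0.06. The unadjusted p in limma was 0.0330 and the adjusted p 0.461. With each pool left out in turn it ranged from -0.65 to -0.52. Centring each array on its median made it -0.45, with an unadjusted p of 0.151 in limma.

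The second Smad1 probe set, 1459843_s_at, read 2463 and 2563 against 3135 and 6089. The mutant pools were again close together, but control replicate 2 was well above control replicate 1, by 0.95 on the log2 scale. Its log2 fold change was -0.79 ± 0.33 (unadjusted p = 0.0437, adjusted p = 0.481 in limma). Without control replicate 1 it was -1.27, and without control replicate 2 it was -0.32. The third, 1416081_at, read 350 and 390 against 392 and 667, so the genotypes separated by only a small margin, 390 against 392. Its log2 fold change of -0.45 ± 0.35 was -0.08 without control replicate 2. Control replicate 2 was the higher control on both of these probe sets, so both values were smaller without it. On the brightest probe set the log2 fold change without that pool was -0.56.

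Smad5 read 2332 and 2016 in the mutants against 2365 and 1596 in the controls on its brightest probe set, with the mutant values between the control values. The log2 fold change was 0.16 ± 0.28, with a 95% interval from -0.50 to 0.81. The other probe sets read 468 and 354 against 399 and 317 (0.18 ± 0.32) and 230 and 269 against 232 and 246 (0.05 ± 0.33). All 3 had small positive values, each under its standard error. The difference between Smad1 and Smad5 in their response was not tested.

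Smad6 had 1 probe set, at 1900 and 2401 in the mutants and 2379 and 4014 in the controls. Cxcr7-/- replicate 2, at 2401, was just above control replicate 1, at 2379, so the genotypes overlapped by a small margin. The log2 fold change was -0.53 ± 0.31 (95% interval -1.25 to 0.19, adjusted p = 0.611 in limma). It was -0.90 without control replicate 1 and -0.15 without control replicate 2. Summed endothelial marker signal over 14 genes was 20191 and 18857 in the mutants and 24837 and 31221 in the controls, and so was also highest in control replicate 2. Its part in the Smad6 values was not tested.

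**Figure D3:**
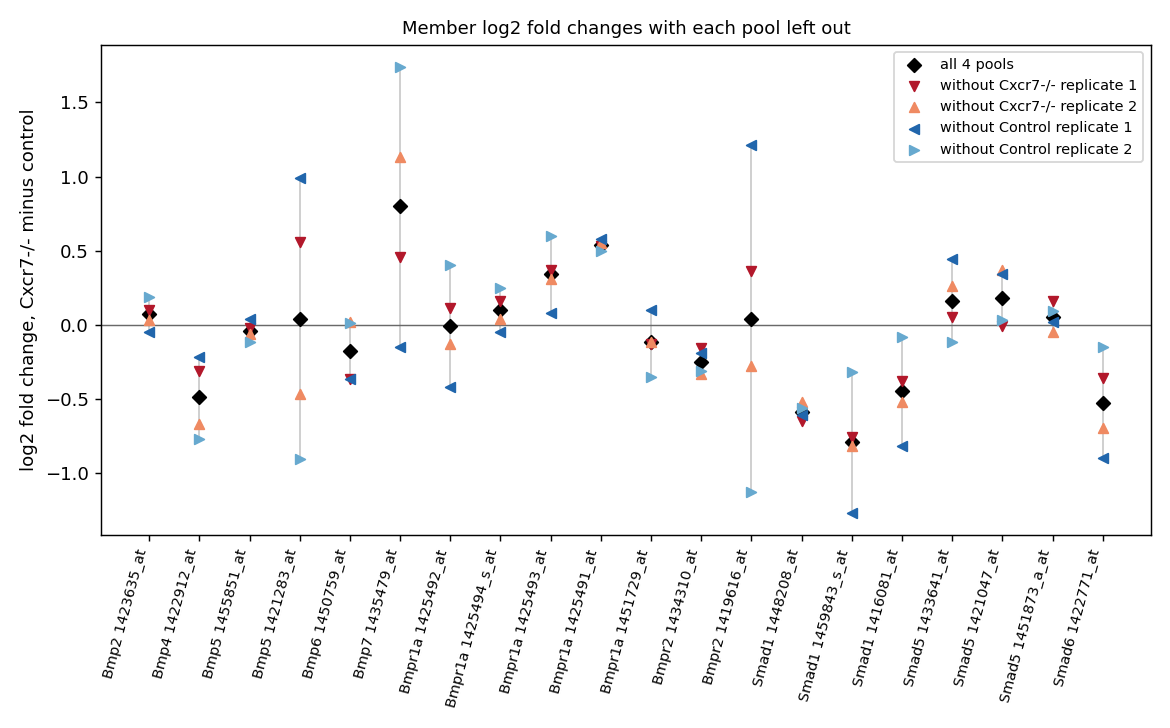
Log2 fold change, Cxcr7-/- minus control (vertical axis), of each kept member probe set (horizontal axis) with all 4 pools (black diamonds) and with 1 pool left out (coloured triangles). Smad1 1448208_at stays between -0.65 and -0.52 and Bmpr1a 1425491_at between 0.50 and 0.58, while Bmpr2 1419616_at runs from -1.13 to 1.21 and Bmp7 1435479_at from -0.15 to 1.74.

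How even the pools of 1 genotype were differed between the genotypes. The control pools differed from each other by a median of 0.48 on the log2 scale over the 20 kept member probe sets, and the Cxcr7-/- pools by 0.19. The control pools were the farther apart in 15 of the 20, against 61.0% of all kept probe sets, where the medians were 0.40 and 0.28.

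Taking each gene by its brightest probe set, 7 of the 10 members had negative log2 fold changes and 3 had positive ones, against 49.7% negative over all 11260 genes. Genotypes did not overlap for 3 of the 10, all lower in Cxcr7-/- pools: Bmp4, Bmpr2 and Smad1. Over all genes 40.2% did not overlap and 19.1% were lower in both mutant pools. The median over the 10 members was -0.11, against 0.00 over all genes. By role the median was -0.04 for the 5 ligands, -0.13 for the 2 receptors and -0.53 for the 3 Smads. These medians move with how the arrays are scaled. Centring each array on its median shifted the median of all genes by 0.14 and put that of the members at 0.03, which is again 0.11 lower than all genes.

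The genes whose pattern over the 4 pools was most like that of the brightest Smad1 probe set were Megf11, Spata7 and Zfp414. Likeness was the root mean square difference between log2 values centred on their mean, which was 0.012 for Megf11, 0.020 for Spata7 and 0.021 for Zfp414. With 4 pools such nearness describes the shape and no more.

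Other genes of the pathway were counted from a list of 96, of which 66 had a kept probe set. In limma 1 was higher and 1 lower at an unadjusted p under 0.05 (2 of 66, where 7.96% of all genes were called, 3.93% higher and 4.03% lower), and none passed the adjusted threshold. Negative log2 fold changes were seen for 41 of the 66, with a median of -0.13, against 49.7% and 0.00 over all genes. Both mutant pools were lower than both controls for 15 of the 66 and higher for 9. Over all genes these shares were 19.1% and 21.1%. The higher gene was Bmper, a secreted modulator that binds BMPs and is known from endothelial cells, at 13297 and 11301 in the mutants and 9459 and 6178 in the controls. All mutant values were above all control values, and its log2 fold change was 0.68 ± 0.26 (adjusted p = 0.460). The lower gene was Sost, which encodes the secreted antagonist sclerostin, with dim signals of 73.4 and 36.0 against 243 and 98.0 (-1.26 ± 0.52, adjusted p = 0.478 in limma), and its other probe set read under 10 in each pool.

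The other secreted antagonists and modulators had 7 negative and 5 positive values of 12 in all with these included. The 2 brightest were the follistatin-like gene Fstl1 at 0.10 ± 0.21 and the secreted protease Htra1 at -0.13 ± 0.21, neither separating the genotypes. Follistatin (Fst), which binds activins and some BMPs, was named after its values were seen: it read 2677 and 3798 against 1336 and 2570, higher in both mutant pools by a small margin (0.78 ± 0.35, adjusted p = 0.508 in limma).

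Among the other receptors and co-receptors, 5 of 7 had negative values. The 2 positive ones were Acvr1, which overlapped between genotypes (0.14 ± 0.24), and Acvr2a, which was higher in both mutant pools. Acvr2a read 1159 and 1646 against 989 and 870 (0.56 ± 0.29). Neo1, a receptor for repulsive guidance molecules, read 7554 and 6580 against 8140 and 8080 (-0.20 ± 0.21). Endoglin (Eng), the endothelial co-receptor, read 3357 and 3669 against 4031 and 7136 (-0.61 ± 0.30), with control replicate 2 far above the others. Acvrl1, which encodes the endothelial type I receptor ALK1, was dim and overlapping, at 79.5 and 118 against 130 and 111 (-0.25 ± 0.40). Tmem100, an endothelial gene downstream of that receptor, went the other way, at 1585 and 1890 against 517 and 551 (1.66 ± 0.27, adjusted p = 0.400 in limma), and its other probe set overlapped at 606 and 447 against 208 and 600. Tmem100 is in none of the pathway lists counted here and is not plotted with them. Tmem100, Acvrl1, Acvr1 and Acvr2a were named after their values were seen.

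The shared partner Smad4 read 5211 and 4351 in the mutants and 5561 and 8482 in the controls, lower in both mutant pools, at -0.53 ± 0.27 (adjusted p = 0.551 in limma). Smad7, the other inhibitory Smad, read 1221 and 987 against 1016 and 1074 and overlapped, at 0.07 ± 0.27. Of 3 listed ligands that passed the filter, Gdf10 read 198 and 148 against 615 and 225 (-1.04 ± 0.48) and Gdf2, the ligand BMP9, read 183 and 163 against 332 and 181 (-0.46 ± 0.39). The remaining ligand, Bmp15, was dim and higher in both mutant pools, at 118 and 145 against 107 and 83.2 (0.39 ± 0.39). Bmp15 was named after its values were seen. The 21 intracellular regulators had a median of -0.06. Their 2 brightest, the type I receptor-binding protein Fkbp1a at 0.09 ± 0.20 and the phosphatase Ctdsp2 at -0.31 ± 0.25, overlapped between genotypes.

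Transcription partners and targets of the pathway had 13 negative and 8 positive values of 21, with a median of -0.15 and none at an unadjusted p under 0.05 in limma. The brightest were Postn, the matrix protein periostin, at 0.30 ± 0.26, and Snai2, a repressor of endothelial character, at -0.50 ± 0.27. The inhibitors of differentiation Id1 and Id3, direct targets of Smad1 and Smad5, were lower in both mutant pools. Id3 read 4384 and 4245 against 5377 and 5966 (-0.39 ± 0.22, adjusted p = 0.594 in limma), with the pools of each genotype close together. Id1 read 482 and 396 against 503 and 872 (-0.58 ± 0.35, adjusted p = 0.619 in limma). The targets Id2, at 0.20 ± 0.28, and Id4, at -0.28 ± 0.26, overlapped between genotypes. These 4 Id genes were named after their values were seen.

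**Figure D4:**
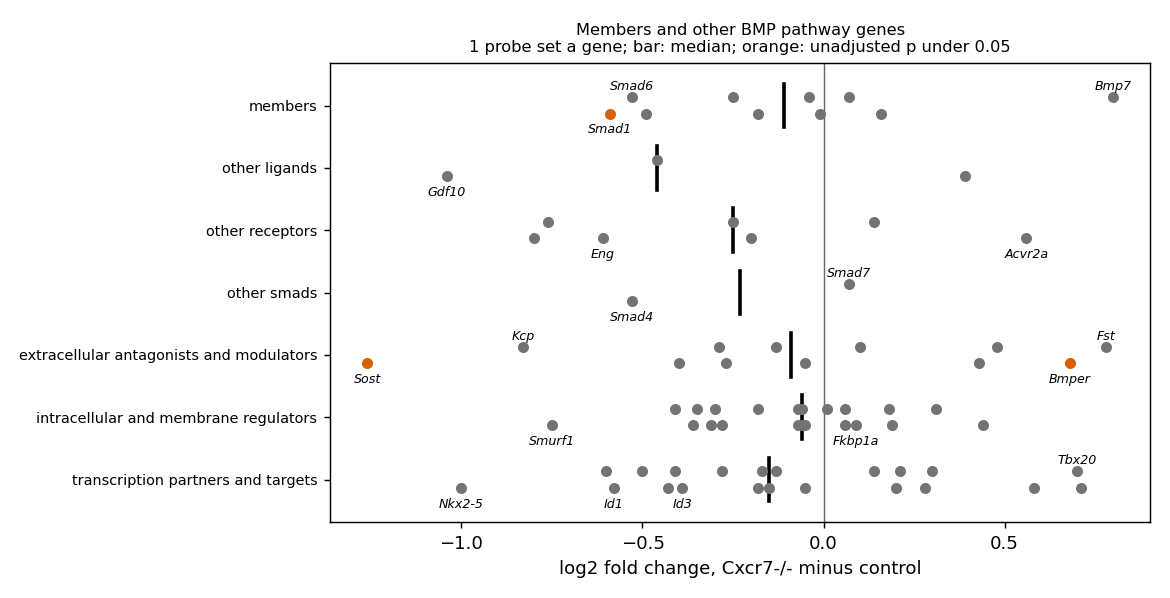
Log2 fold change, Cxcr7-/- minus control (horizontal axis), of the 10 members and of the 66 other BMP pathway genes with a kept probe set, 1 point per gene, in rows by role. Vertical bars are row medians and orange points have an unadjusted p under 0.05 in limma: Smad1, Sost and Bmper.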

How the data were processed

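Total RNA from 4 pools of semilunar valve leaflets was amplified in 2 rounds and hybridised to 1 array per pool. The deposited values are intensity values, 1 linear signal per probe set. They were made with MAS5 and Affymetrix Expression Console, per the submitters' processing notes. No version or genome build is given in the sources used here. The mean signal per array, trimmed to the middle 96% of probe sets, was 500.003 on each. After such scaling a value depends on all signal on its array, and repeated amplification favours the 3' end.

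The 64 control probe sets were set aside, leaving 45037, of which 34945 had 1 gene symbol, 932 several and 9160 none in an annotation table of the array. The number 22 added before log2 was the 25th percentile of all signals, rounded. The comparison, mutants minus controls, used limma 3.58.1 (R 4.3.3) with eBayes moderation along an intensity trend. Its tests were two-sided, and p-values were adjusted by Benjamini-Hochberg over the 22518 kept probe sets and a threshold of 0.05. Of its degrees of freedom, 2 were residual and 5.85 came from the prior. Arrays were not paired, and their number limits the precision. An exact permutation test of 2 against 2 cannot go below p = 0.333, so none was used.

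The named genes were all members; pathway genes at an unadjusted p under 0.05; the 2 brightest per pathway list; the 3 genes most like the member with the smallest p; and the 2 brightest of a marker list where given. Any other gene was named after its values were seen, Cxcr7 as a check of the labels. The members and lists were chosen with earlier results of these data known. Alternatives were other pseudocounts, filters and scalings, no trend, a replicate block, other choices of probe set and each pool left out.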

Additional observations from a re-analysis of the deposited data

How the results depend on the processing

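With 2 pools a genotype, direction and size rest on single arrays. Leaving out 1 pool gave from 0 to 673 probe sets past the adjusted threshold (673 without control replicate 1, 8 without Cxcr7-/- replicate 2), from 0 to 5 member probe sets and from 1 to 18 other pathway genes at an unadjusted p under 0.05, and from 4 to 9 of 10 members with genotypes that did not overlap (3 with all pools), where fewer pools overlap less by construction. The matching shares over all probe sets or genes with a pool left out are not given here. These counts therefore cannot show anything particular to the BMP genes. With a pool left out, the median of the members ranged from -0.20 to -0.09. It was -0.05 when each gene was the mean of its kept probe sets. Under median centring 0 member probe sets had an unadjusted p under 0.05 and the members' median was 0.03; without an intensity trend the count was also 0. The count of other pathway genes, 2 of 66 in the report, was 1 of 89 with no filter and 1 of 50 with the filter at the 75th percentile. It was 1 of 66 with quantile normalization and without a trend, and 3 of 66 with median centring. With no filter, 3 of 25 member probe sets had an unadjusted p under 0.05 in limma. With the replicate number as a block, 1 member probe set (Smad1 1459843_s_at) and 5 other pathway genes had an unadjusted p under 0.05, and 0 probe sets passed the adjusted threshold. The numbers are not tied to a litter or day, and the deviations of same-numbered pools correlated at -0.262 over probe sets. With the numbers crossed, an alternative added after seeing the data, 5 probe sets passed the adjusted threshold and 7 other pathway genes had an unadjusted p under 0.05. For these blocks and the other settings of this section, the matching shares over all probe sets or genes are also not given here. Those counts too cannot show anything particular to the BMP genes. The causes were not tested.

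Of 232 values of kept member probe sets under other settings, 210 kept their direction and side of the threshold and 21 changed sign. The remaining 1, Smad1 1459843_s_at without control replicate 1, kept its direction, in a fit with 1 control pool. Apart from pools left out, the sign changed for Bmpr2 1419616_at and Bmp5 1421283_at with a pseudocount 4 times larger (-0.02 each), and with median centring for Bmpr1a 1425492_at (0.13), Bmpr1a 1451729_at (0.02) and Bmp5 1455851_at (0.10). With pools left out, values ranged from -0.05 to 0.19 for Bmp2, from -0.12 to 0.04 for Bmp5 1455851_at, from -0.91 to 0.99 for Bmp5 1421283_at, from -0.37 to 0.02 for Bmp6 and from -0.15 to 1.74 for Bmp7. They ranged from -0.42 to 0.40 for Bmpr1a 1425492_at, from -0.05 to 0.25 for Bmpr1a 1425494_s_at, from -0.35 to 0.10 for Bmpr1a 1451729_at and from -1.13 to 1.21 for Bmpr2 1419616_at. For Smad5 they ranged from -0.12 to 0.44 (1433641_at), from -0.01 to 0.37 (1421047_at) and from -0.05 to 0.16 (1451873_a_at). Smad1, Smad6, Bmp4 and Bmpr2 1434310_at stayed negative under every alternative run. Bmpr1a 1425491_at and Bmpr1a 1425493_at stayed positive under every alternative that kept them. Bmp7 lay nearest the filter on low signal, with a mean log2 value of 6.80 against 6.77.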
